A study of Mus musculus with 16 samples.

Results

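The lysosomal sphingolipid breakdown genes described here are Hexa, Galc, Asah1, Gm2a, Psap, Smpd1, Arsa and Glb1. They were taken by symbol from a table of gene counts, where they made up 8 of 53801 rows, and all 8 were among the 21768 genes that passed the filter on low counts. RNA was measured in cells of the oligodendrocyte lineage, the myelin-forming glia, which had been pulled from mouse brain with magnetic beads. The 16 libraries fell into 4 groups of 4 male mice. App_HFD and App_NCD were mice homozygous for the App NL-G-F allele, on a high-fat diet and on the control diet, and WT_HFD and WT_NCD were C57BL/6J Jcl wild-type mice on the same diets. The high-fat diet supplied 60.0% of its energy as fat and the control diet 12.5%. Feeding lasted 6 months from 2 months of age, and brains were taken at 8 months. The App allele is a knock-in at the mouse gene's own locus that carries a humanised amyloid-β region with the Swedish, Beyreuther/Iberian and Arctic mutations, so the altered protein is made wherever App is normally expressed and not in oligodendrocytes alone. Wild-type mice were bought in and knock-in mice came from crosses of an existing line, so genotype and source of the animals cannot be told apart. The labels number 1 mouse per library and do not say whether animals were pooled. The comparisons ask whether the level of each gene differs with genotype, with diet, and with genotype in a way that depends on diet.

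Sphingolipids are membrane lipids built on ceramide, and myelin is rich in galactosylceramide and in its sulfated form, sulfatide. In the lysosome they are taken apart from the outer sugar inwards. Hydrolases do the cutting, and small helper proteins lift the lipid out of the membrane for the enzyme. Glb1 encodes the acid β-galactosidase that turns ganglioside GM1 into GM2. Hexa encodes the α subunit of β-hexosaminidase A, which trims GM2 while Gm2a, the GM2 activator, presents the lipid to it. Arsa encodes arylsulfatase A, which removes the sulfate of sulfatide, and Galc encodes the galactosylceramidase that then frees ceramide. Smpd1 encodes acid sphingomyelinase, which makes ceramide from sphingomyelin. Asah1 encodes acid ceramidase, which splits ceramide into sphingosine and a fatty acid. Psap encodes prosaposin, the precursor of the saposin helper proteins. Loss of these genes in humans causes storage diseases, among them Tay-Sachs disease (HEXA), Krabbe disease (GALC) and metachromatic leukodystrophy (ARSA).

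Library totals ran from 64538297 to 217925484 counts. The library App_NCD 553 stood apart, with 18928 genes above 0 against 27151 to 30617 in the other 15, and with 39.4% of its counts from mitochondrially encoded genes against 1.22% to 4.62%. The genotype results of the 8 genes are therefore given with and without it. Its scaling factor (TMM), which enters every CPM given here, was 0.493, against 0.9835 to 1.112 in the other 15. This factor raises its CPM well above its share of the library total, so its place among the libraries depends on the scaling. The sorted cells carried their label's markers: the 22 listed myelin genes, among them Trf and Mbp, summed to 38734 to 52225 CPM (counts scaled to a common library total) in App_HFD, 33190 to 54061 CPM in App_NCD, 45852 to 53987 CPM in WT_HFD and 38376 to 51496 CPM in WT_NCD. They also carried microglial RNA. The 15 homeostatic microglial genes, among them Csf1r and C1qa, summed to 9415 to 15868 CPM in App_HFD, 7677 to 14510 CPM in App_NCD, 3113 to 5839 CPM in WT_HFD and 4136 to 6809 CPM in WT_NCD. The 18 genes of disease-associated microglia, led by Ctsd, Apoe and Ctsb, summed to 21662 to 35436 CPM in App_HFD, 14264 to 33039 CPM in App_NCD, 5368 to 6562 CPM in WT_HFD and 6299 to 8235 CPM in WT_NCD. No gene of either microglial list was at 0 in any library. In edgeR 13 of the 15 homeostatic and 17 of the 18 disease-associated genes rose with the knock-in on the high-fat diet, and 9 and 16 did so on the control diet (13 and 17 without App_NCD 553), while 0 of the 22 myelin genes passed on either diet. Without App_NCD 553, 1 myelin gene fell on the high-fat diet. Most myelin genes were lower in App without passing. Of the 22, 1 had a log2 fold change above 0 on the high-fat diet and 3 on the control diet (medians -0.17 and -0.42). Without App_NCD 553, 0 of 22 did on either diet (medians -0.19 and -0.33, against -0.02 and -0.05 over all genes). The microglial sums move with genotype, as do several genes below, and their part in those results was not tested. In sorted but bulk RNA, a change in the number of cells of a type and a change in RNA per cell cannot be told apart.

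**Figure D1:**
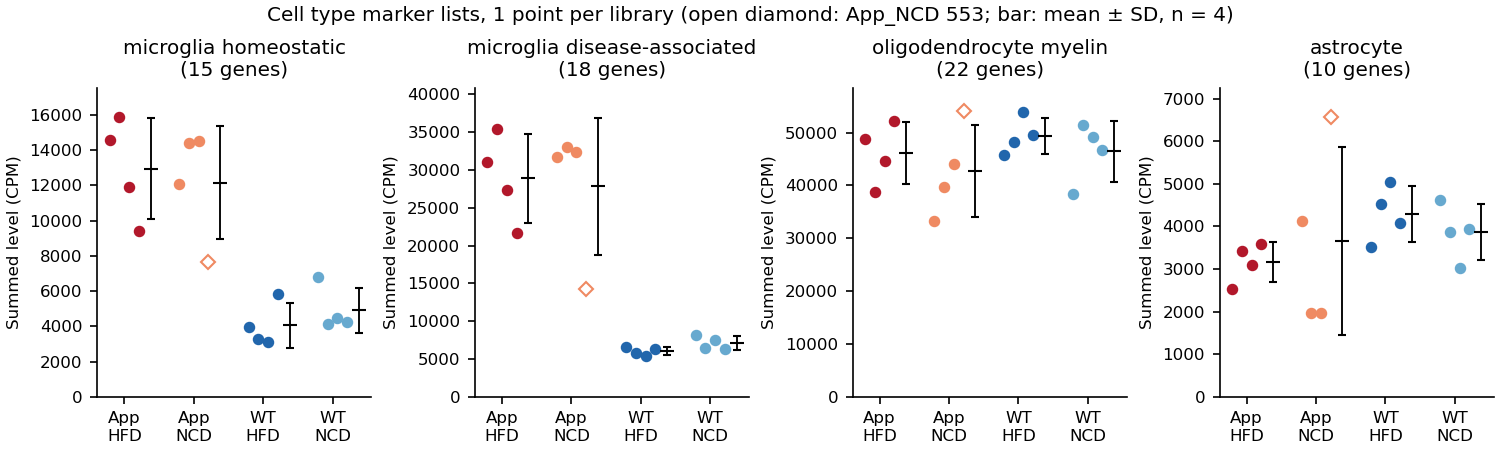
Summed level (CPM, vertical axis from 0) of 4 lists of cell type markers in the 4 groups, with 1 point per library, an open diamond for App_NCD 553 and a bar for the mean ± SD (n = 4). In CPM both microglial sums are higher in every App library than in any wild-type library, and the myelin sums of the groups overlap. For App_NCD 553 the microglial difference rests on its scaling factor of 0.493.

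The promoters of 7 of the 8 genes were available from RefSeq (GRCm38.p6; 250 bases before to 50 after the gene's start), and Asah1 was not among them. They were searched on both strands for TCACGTGA, a sequence known to bind TFEB, a regulator of lysosomal genes, and for its core CACGTG, which every TCACGTGA also contains. The longer sequence occurs in 0.974% of 32851 promoters of this length and in none of those of the 7 genes, and the core occurs in 7.15% of all promoters and in those of Glb1 and Arsa. The promoters of Hexa, whose level differed most with genotype, of Glb1, which came next, and of Arsa, which has the core but whose level passed no test of genotype in the fit of 16 libraries, are printed 5′ to 3′ along the gene, with CACGTG in capitals where present. These matches are letters in a window and show no binding.
Hexa (chr9:59539290-59539589, plus strand): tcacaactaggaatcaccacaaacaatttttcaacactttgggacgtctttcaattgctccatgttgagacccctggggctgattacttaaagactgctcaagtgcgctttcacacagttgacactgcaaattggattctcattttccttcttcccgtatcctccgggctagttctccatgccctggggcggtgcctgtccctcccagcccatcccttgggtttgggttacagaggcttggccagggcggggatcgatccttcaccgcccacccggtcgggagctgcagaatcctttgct
Glb1 (chr9:114400828-114401127, plus strand): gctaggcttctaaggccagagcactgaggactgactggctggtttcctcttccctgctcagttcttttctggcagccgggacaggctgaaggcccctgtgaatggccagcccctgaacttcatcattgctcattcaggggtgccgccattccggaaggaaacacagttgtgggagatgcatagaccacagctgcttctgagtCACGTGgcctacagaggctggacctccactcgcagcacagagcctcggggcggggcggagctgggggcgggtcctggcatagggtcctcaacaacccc
Arsa (chr15:89477375-89477674, minus strand): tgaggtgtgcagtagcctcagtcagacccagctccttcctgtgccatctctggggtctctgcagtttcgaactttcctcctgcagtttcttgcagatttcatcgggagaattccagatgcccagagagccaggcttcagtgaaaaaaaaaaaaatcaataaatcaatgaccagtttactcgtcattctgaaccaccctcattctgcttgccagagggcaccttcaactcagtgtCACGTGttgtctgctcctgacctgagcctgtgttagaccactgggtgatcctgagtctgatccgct
The core lies 48 bases before the start of Glb1 and 16 bases before that of Arsa. The printed Hexa promoter, like those of Galc, Gm2a, Psap and Smpd1, holds neither sequence. Among the promoters of related genes that were available, TCACGTGA occurs in Ctsa and Gla, which are described below with the other enzymes of the pathway, and in Sumf1.

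Of the 3 genes of the ganglioside steps, Hexa and Glb1 had the largest fold changes with genotype among the 8 genes and Gm2a did not. Hexa was 5.55-fold higher in App than in wild-type libraries on the high-fat diet and 4.55-fold higher on the control diet, and Glb1 was 2.55-fold and 2.29-fold higher. The activator Gm2a, which works at the same step as Hexa, was 1.36-fold and 1.39-fold higher and passed the test only in fits without App_NCD 553, in fits with quality weights, or, on the high-fat diet, in the fit of the 8 libraries compared.

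Hexa (ENSMUSG00000025232, mm10 chromosome 9, 59539540 to 59565109, plus strand) was at 831.3, 865.9, 670.2 and 594.1 CPM in App_HFD libraries 547, 559, 560 and 561, against 133.5, 116, 126.2 and 158.2 CPM in WT_HFD libraries 2, 3, 15 and 16. It was at 727.4, 819.2, 800.9 and 215.5 CPM in App_NCD libraries 537, 538, 545 and 553, against 191.1, 140.8, 99.97 and 131.9 CPM in WT_NCD libraries 4, 5, 11 and 12. In CPM the genotypes did not overlap on either diet. App_NCD 553, far below the rest of its group, was still above the highest WT_NCD library. That placing rests on its scaling factor, as its 7591 Hexa counts were a smaller share of the library total than in any WT_NCD library. The log2 fold change was 2.47 ± 0.333 on the high-fat diet (SE, edgeR quasi-likelihood test, Benjamini-Hochberg adjusted p = 0.000266, n = 4 per group) and 2.19 ± 0.33 on the control diet (adjusted p = 0.000605). Without App_NCD 553 it was 2.45 ± 0.178 (adjusted p = 2.93e-07) and 2.44 ± 0.186 (adjusted p = 4.58e-07), so that the fold was 5.46 and 5.44. Hexa shares 255 exonic bases with Tmem202 on the opposite strand, which was itself at 0.155 to 1.93 CPM.

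Glb1 (ENSMUSG00000045594, chromosome 9, 114401076 to 114474898, plus strand) was at 116.6, 145.5, 111.5 and 87.78 CPM in App_HFD, against 58.38, 43.94, 38.78 and 40.1 CPM in WT_HFD, in the order of libraries given for Hexa. It was at 134, 121.3, 121.4 and 86.69 CPM in App_NCD, against 54.3, 45.81, 58.35 and 43.87 CPM in WT_NCD. In CPM every App library lay above every wild-type library, App_NCD 553 included. As a share of the library total, App_NCD 553 lay below all WT_NCD libraries. In edgeR the log2 fold change was 1.35 ± 0.188 on the high-fat diet (adjusted p = 0.000352) and 1.20 ± 0.187 on the control diet (adjusted p = 0.000842), and 1.33 ± 0.158 (adjusted p = 3.43e-05) and 1.28 ± 0.166 (adjusted p = 9.21e-05) without App_NCD 553. With library totals as the only scaling the control-diet call was lost, at 0.96 (adjusted p = 0.0665). Tmppe, which lies on the same strand and shares 165 exonic bases with Glb1, was at 0.568 to 6.52 CPM, and reads of these bases cannot be assigned to one gene with certainty.

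Gm2a (ENSMUSG00000000594, chromosome 11, 55098115 to 55113029, plus strand) was at 304.5, 348.8, 315.6 and 256.8 CPM in App_HFD, against 242.7, 215.2, 229.2 and 215.9 CPM in WT_HFD. It was at 377, 315.4, 336.6 and 175.2 CPM in App_NCD, against 253.2, 225.7, 168.7 and 216.8 CPM in WT_NCD. The groups did not overlap on the high-fat diet. On the control diet App_NCD 553 fell inside the WT_NCD range while the other 3 App_NCD libraries lay above it. With all 16 libraries the log2 fold change was 0.44 ± 0.198 (edgeR, adjusted p = 0.246) on the high-fat diet and 0.48 ± 0.198 (adjusted p = 0.141) on the control diet. Without App_NCD 553 Gm2a rose on both diets, by 0.42 ± 0.121 (adjusted p = 0.0242) and 0.64 ± 0.13 (adjusted p = 0.00372).

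Some of the libraries that were high in Hexa within a group were also high in microglial genes, but the 2 orders did not match throughout. In App_HFD the order of Hexa over the libraries 559, 547, 560 and 561 was also the order of the homeostatic microglial sum, at 15868, 14583, 11891 and 9415 CPM. In wild type, Hexa was highest in WT_NCD 4 and in WT_HFD 16 within each diet, and these were also the libraries with the most homeostatic microglial RNA, at 6809 and 5839 CPM against 3113 to 4465 CPM in the other 6. App_NCD 553 was lowest of its group in both. Other placings differed. WT_NCD 11, lowest of its group in Hexa (99.97 CPM), had a sum of 4465 CPM, above those of WT_NCD 5 and 12 (4136 and 4245 CPM). App_NCD 538 was above 545 in Hexa (819.2 and 800.9 CPM) but below it in the sum (14377 and 14510 CPM). WT_HFD 15 was above 3 in Hexa (126.2 and 116 CPM) but below it in the sum (3113 and 3261 CPM).

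**Figure D2:**
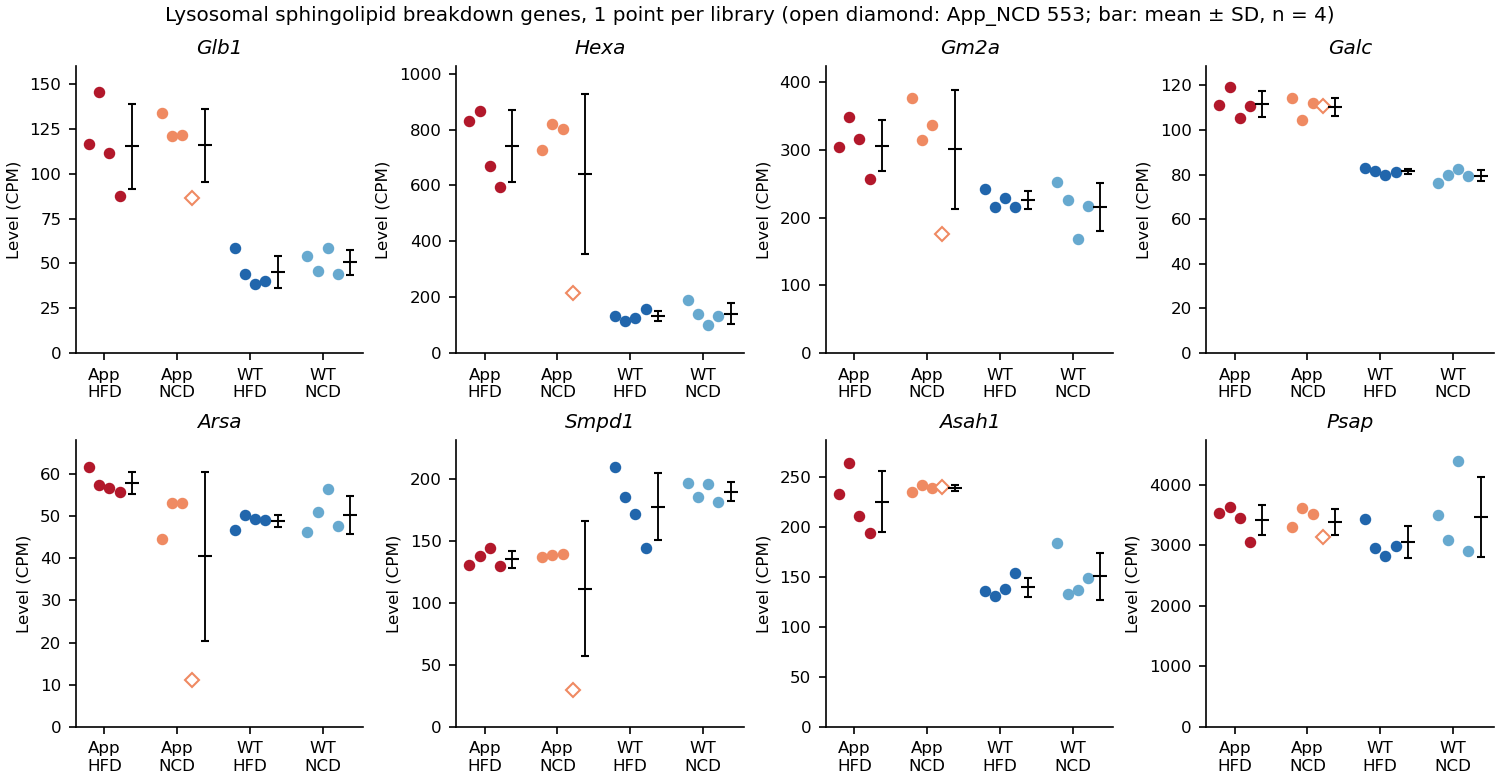
Level (CPM, vertical axes from 0) of the 8 genes in the 4 groups, with 1 point per library, an open diamond for App_NCD 553 and a bar for the mean ± SD (n = 4). Hexa, Glb1, Asah1 and Galc lie higher in every App library than in any wild-type library on the same diet, Smpd1 lies lower in App, and Psap overlaps between all groups. For App_NCD 553 the higher levels rest on its scaling factor of 0.493.

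The genes that take apart the galactolipids of myelin differed from each other. Galc was higher in App libraries by a small and even amount, 1.37-fold on the high-fat diet and 1.39-fold on the control diet, and Arsa passed no test of genotype in the edgeR fits of all 4 groups, with or without App_NCD 553.

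Galc (ENSMUSG00000021003, chromosome 12, 98202294 to 98259459, minus strand) was at 111.2, 119.2, 105.2 and 110.8 CPM in App_HFD, against 82.78, 81.78, 79.78 and 81.39 CPM in WT_HFD. It was at 114.4, 104.6, 112 and 110.7 CPM in App_NCD, against 76.29, 80.05, 82.62 and 79.46 CPM in WT_NCD. Galc varied little within groups, with coefficients of variation of 5.15%, 3.75%, 1.53% and 3.27% in App_HFD, App_NCD, WT_HFD and WT_NCD, while each of the other 7 genes exceeded 5.15% in at least 1 group. The genotypes were apart on both diets. App_NCD 553 sat in the middle of its group in CPM, but below the rest of it and below WT_NCD as a share of the library total. The log2 fold change was 0.46 ± 0.0933 on the high-fat diet (edgeR, adjusted p = 0.007) and 0.47 ± 0.0933 on the control diet (adjusted p = 0.00501), and 0.43 ± 0.0676 and 0.44 ± 0.0725 without App_NCD 553 (adjusted p = 0.000393 and 0.000715). The call was lost on both diets with library totals as the only scaling (adjusted p = 0.386 and 0.547) and with scaling to the myelin list (adjusted p = 0.0984 and 0.0514), and on the control diet when the 8 libraries compared were fitted alone (adjusted p = 0.143). The log2 fold change stayed above 0 in all of these, from 0.18 to 0.63.

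Arsa (ENSMUSG00000022620, chromosome 15, 89472476 to 89477425, minus strand) was at 61.74, 57.36, 56.8 and 55.69 CPM in App_HFD, against 46.81, 50.32, 49.25 and 49.05 CPM in WT_HFD. It was at 44.58, 53.05, 53.17 and 11.02 CPM in App_NCD, against 46.28, 51.02, 56.49 and 47.79 CPM in WT_NCD. The groups were apart on the high-fat diet and overlapped on the control diet, where App_NCD 553 was far below all other libraries. The log2 fold change was 0.25 ± 0.313 on the high-fat diet (edgeR, adjusted p = 0.832) and -0.32 ± 0.313 on the control diet (adjusted p = 0.535). Without App_NCD 553 it was 0.22 ± 0.0806 (adjusted p = 0.0658) and -0.04 ± 0.087 (adjusted p = 0.821). Limma-voom with quality weights called the high-fat difference (0.24, adjusted p = 0.0258), as did edgeR on the 8 libraries compared (0.19, adjusted p = 0.0455). An antisense gene, C230037L18Rik, shares 690 exonic bases with Arsa and was at 2.27 to 4.67 CPM, and Gm47439 shares 400 bases with Galc and did not exceed 0.823 CPM.

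Among the genes next to ceramide, Smpd1 had a fold change of opposite sign to those of Asah1 and of Galc, whose product also yields ceramide. Asah1, which breaks ceramide down, was 1.62-fold and 1.59-fold higher in App libraries, while Smpd1, which makes it from sphingomyelin, was lower in App in every fit that was run but passed the test only in fits without App_NCD 553, in fits with quality weights, or, on the high-fat diet, with the 8 libraries compared.

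Asah1 (ENSMUSG00000031591, chromosome 8, 41340197 to 41374773, minus strand) was at 232.9, 263.5, 210.6 and 193.2 CPM in App_HFD, against 136.1, 130.2, 137.7 and 153.2 CPM in WT_HFD. It was at 235, 242, 238.5 and 239.5 CPM in App_NCD, against 183.9, 132.9, 136.4 and 148.4 CPM in WT_NCD. In CPM the genotypes did not overlap on either diet, and App_NCD 553 lay within the range of its group. As a share of the library total, App_NCD 553 was below all WT_NCD libraries. The log2 fold change was 0.69 ± 0.132 on the high-fat diet (edgeR, adjusted p = 0.00408) and 0.67 ± 0.131 on the control diet (adjusted p = 0.00495), and 0.67 ± 0.112 and 0.64 ± 0.12 without App_NCD 553 (adjusted p = 0.000694 and 0.00212). With library totals as the only scaling the calls were lost (adjusted p = 0.133 and 0.288), as they were with scaling to the myelin list (adjusted p = 0.0555 and 0.0509) and, on the control diet, with the 8 libraries compared alone (adjusted p = 0.0844). The highest wild-type libraries were again WT_NCD 4 and WT_HFD 16, and the order within App_HFD was that of Hexa.

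Smpd1 (ENSMUSG00000037049, chromosome 7, 105554360 to 105558389, plus strand) was at 130, 137.6, 143.8 and 129.2 CPM in App_HFD, against 209.1, 185.2, 171.5 and 143.8 CPM in WT_HFD. It was at 137, 138.8, 139.3 and 29.87 CPM in App_NCD, against 196.1, 185.2, 195.5 and 181.4 CPM in WT_NCD. On the control diet all 4 App libraries were well below the wild-type ones, and on the high-fat diet WT_HFD 16 came down to the level of the highest App_HFD library, 560, without crossing it. With all 16 libraries the log2 fold change was -0.39 ± 0.321 on the high-fat diet (edgeR, adjusted p = 0.643) and -0.77 ± 0.322 on the control diet (adjusted p = 0.146). Without App_NCD 553 Smpd1 fell on both diets, with -0.42 ± 0.0982 (adjusted p = 0.00771, 0.75-fold) and -0.48 ± 0.107 (adjusted p = 0.00633, 0.715-fold). WT_HFD 16, the lowest wild-type library in Smpd1, was the WT_HFD library highest in homeostatic microglial genes, but WT_NCD 4, highest of all wild-type libraries in those genes, was also the highest WT_NCD library in Smpd1.

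Psap was by far the highest of the 8 genes and did not differ with genotype beyond the spread between libraries. Psap (ENSMUSG00000004207, chromosome 10, 60277627 to 60302597, plus strand) was at 3535, 3638, 3455 and 3065 CPM in App_HFD, against 3437, 2966, 2832 and 2999 CPM in WT_HFD. It was at 3307, 3616, 3516 and 3134 CPM in App_NCD, against 3500, 3089, 4397 and 2911 CPM in WT_NCD. The groups overlapped on both diets, and the highest library of all was WT_NCD 11. Its log2 fold change was 0.16 ± 0.148 on the high-fat diet (edgeR, adjusted p = 0.705, 95% interval -0.15 to 0.48) and -0.03 ± 0.148 on the control diet (adjusted p = 0.903, interval -0.35 to 0.28), and 0.14 and -0.03 without App_NCD 553. A change of up to 1.39-fold on the high-fat diet is inside that interval.

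Per kilobase of the principal coding transcript, the order of the 8 genes differed with genotype. In App_HFD Psap was at 1288 ± 94.2 CPM per kb and Hexa at 370.9 ± 64.9, well clear of Asah1 at 81.2 ± 10.9 and Gm2a at 74.3 ± 9.23 (SD, n = 4). Smpd1 followed at 56.0 ± 2.85 and Glb1 at 48.1 ± 9.90, then Galc at 29.1 ± 1.5 and Arsa at 16.6 ± 0.760. In that order Asah1 and Gm2a, and Smpd1 and Glb1, are closer than their spread. App_NCD without its library 553 gave means of 1310 CPM per kb for Psap, 392 for Hexa, 86.0 for Asah1, 83.1 for Gm2a, 57.4 for Smpd1, 52.4 for Glb1, 28.8 for Galc and 14.4 for Arsa. In WT_HFD the means were 1151 for Psap, 73.6 ± 11.3 for Smpd1, 66.9 ± 9.01 for Hexa, 54.7 for Gm2a, 50.2 for Asah1, 21.3 for Galc, 18.9 for Glb1 and 14.0 for Arsa. In WT_NCD they were 1308 ± 249.5 for Psap, 78.6 ± 3.06 for Smpd1, 70.6 ± 18.9 for Hexa, 54.3 ± 8.41 for Asah1, 52.4 ± 8.53 for Gm2a, 21.1 ± 2.87 for Glb1, 20.8 ± 0.679 for Galc and 14.4 ± 1.29 for Arsa (SD, n = 4). In both wild-type groups Smpd1 and Hexa, and Glb1 and Galc, are closer than their spread, as are Asah1 and Gm2a in WT_NCD. Hexa came next after Psap in both App groups, while in wild type Hexa and Smpd1 could not be ordered, and Hexa was above Smpd1 in WT_HFD 16 (79.26 and 59.63 CPM per kb) and WT_NCD 4 (95.72 and 81.29). In both App groups Smpd1 was below Asah1 and Gm2a in the mean. Psap made up 65.2% to 68.2% of the summed CPM of the 8 genes in App_HFD and 65.1% to 66.8% in App_NCD, where library 553 had 78.3%, against 77.3% to 79.1% in WT_HFD and 77.4% to 84.6% in WT_NCD.

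Counted together, 4 of the 8 genes (Hexa, Glb1, Asah1 and Galc) rose with the knock-in on each diet and 0 fell, at an adjusted p under 0.05 in edgeR. Of all genes tested, 7.14% were called on the high-fat diet (5.09% higher in App, 2.05% lower) and 8.39% on the control diet (6.5% higher, 1.88% lower). DESeq2 also called 4 on each diet, beside 2508 of all genes on the high-fat diet and 3398 on the control diet. Without App_NCD 553 the count was 5 higher and 1 lower on each diet, with Gm2a and Smpd1 added, against 19.3% of all genes on the high-fat diet (10.8% higher, 8.54% lower) and 17.5% on the control diet (10.2% higher, 7.22% lower). The median log2 fold change of the 8 genes was 0.45 on the high-fat diet and 0.48 on the control diet, beside 0.005 and -0.02 over all genes. In CPM the genotypes did not overlap for 7 of the 8 genes on the high-fat diet, all but Psap, against 25.1% of all genes. On the control diet they did not overlap for 5 of the 8 genes against 15.9% of all genes, and for 6 of 8 against 26.8% without App_NCD 553.

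**Figure D3:**
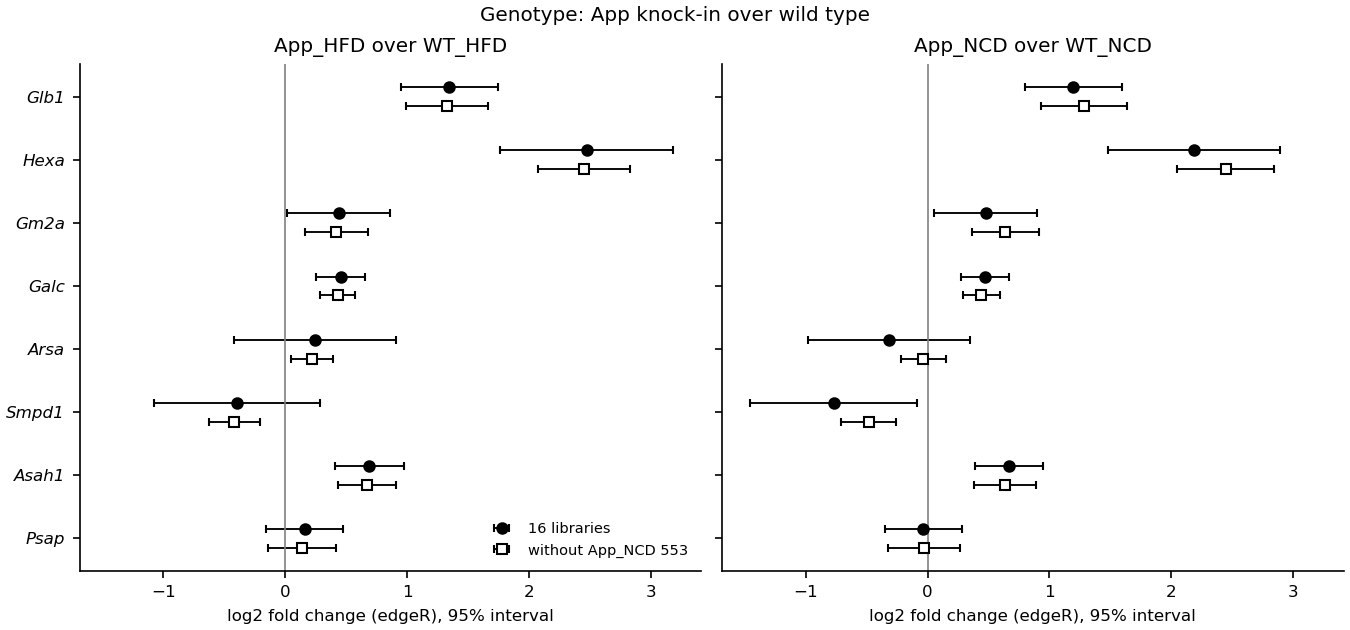
Log2 fold change of the 8 genes (horizontal axis, edgeR) for App_HFD over WT_HFD on the left and App_NCD over WT_NCD on the right, with 95% intervals, filled circles for the fit of 16 libraries and open squares for that without App_NCD 553. Hexa lies near 2.4 and Glb1 near 1.3 on both diets, Smpd1 lies below 0, and leaving out App_NCD 553 narrows the intervals most for Smpd1 and Arsa.

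Other lysosomal genes listed with this pathway rose in part, as Hexa and Glb1 did. The list is broad and includes genes for cholesterol transport (Npc1 and Npc2), a phospholipase (Pla2g15) and a membrane protein (Scarb2). Of 11 tested, 6 rose on the high-fat diet and 0 fell, and the values of some of them are not given here. Ctsa, the protective protein that forms a complex with the Glb1 product and the sialidase Neu1, rose by 1.47 ± 0.14 on the log2 scale (edgeR, adjusted p = 1.01e-05). Gla, the α-galactosidase of globotriaosylceramide, rose by 0.87 ± 0.191, the cholesterol carrier Npc2 by 1.30 ± 0.299 and the lysosomal phospholipase Pla2g15 by 1.49 ± 0.37. On the control diet 4 of the 11 rose with all libraries, among them Ctsa (1.52 ± 0.14) and Gla (0.67 ± 0.191), and 6 rose without App_NCD 553, with Npc2 (1.04 ± 0.15, against 0.79 with it) and Pla2g15 (1.08 ± 0.174, against 0.78 with it) added. With library totals as the only scaling the counts were 2 on the high-fat diet and 1 on the control diet, and limma-voom with quality weights gave 9 on the control diet. The sialidase Neu1 (0.25 and -0.06), the sulfatase activator Sumf1 (0.30 and 1.09, the second being 0.28 without App_NCD 553), the membrane protein Scarb2 (0.17 and 0.12) and the cholesterol transporter Npc1 (0.03 and 0.003) passed on neither diet. The median of the 11 was 0.87 and 0.78.

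Ctsa was at 667.2 to 969.4 CPM in App_HFD and 793.5 to 929.5 CPM in App_NCD, against 275.6 to 317.9 CPM in WT_HFD and 272.3 to 362.7 CPM in WT_NCD. For Ctsa the genotypes were apart on both diets.

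Listed lysosomal genes outside this pathway changed in part. The list holds enzymes of other substrates and also membrane proteins, such as Lamp1, and the regulator Tfeb. Of 25 tested, 8 rose and 0 fell on the high-fat diet, with a median of 0.45, and 11 rose and 0 fell on the control diet, with a median of 0.47. On the control diet the number called was 7, 6 and 6 without WT_NCD 5, 11 or 12, 4 with library totals alone, 5 with the 8 libraries compared alone and 20 with limma-voom and quality weights. On the high-fat diet it was 17 with the 8 libraries compared alone and 20 with limma-voom. Without App_NCD 553, App libraries had 14 of these genes higher and 2 lower under high-fat feeding, and 13 higher and 1 lower under the control diet. The β-glucuronidase Gusb rose by 2.72 ± 0.355 on the high-fat diet and 2.31 ± 0.349 on the control diet (edgeR, adjusted p = 0.000191 and 0.000605), a log2 fold change close to that of Hexa. Without App_NCD 553 these were 2.70 ± 0.151 and 2.59 ± 0.156. Progranulin, Grn, rose by 2.34 ± 0.371 and 1.83 ± 0.364, and the mannosidase Man2b1 by 1.98 ± 0.157 and 1.67 ± 0.156. Tfeb, chosen after its values were seen, was not called, at 0.03 ± 0.353 and -0.49 ± 0.354 (adjusted p = 0.99 and 0.388).

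Sphingolipid enzymes that work outside the lysosome showed no common direction. Of 10 tested, 1 rose on each diet: the alkaline ceramidase Acer3, by 0.79 ± 0.164 on the high-fat diet (edgeR, adjusted p = 0.0079) and 0.86 ± 0.164 on the control diet (adjusted p = 0.0039). No gene of this list was called on either diet with library totals as the only scaling, nor on the high-fat diet with scaling to the myelin list or on the control diet with the 8 libraries compared alone. Other fits called more: 3 and 4 with DESeq2 and 4 and 8 with limma-voom and quality weights, on the high-fat and control diets. On the high-fat diet the number was 5 with the 8 libraries compared alone and 3 with at least 10 counts in every library. Without App_NCD 553, 3 rose and 1 fell on the high-fat diet and 2 rose and 3 fell on the control diet. The sphingosine-1-phosphate lyase Sgpl1 was then higher on both (0.89 ± 0.106 and 0.92 ± 0.113), and the neutral sphingomyelinases Smpd2 (-0.45 ± 0.0818) and Smpd3 (-0.55 ± 0.176) were lower on the control diet. The medians with all libraries were -0.06 and -0.10.

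**Figure D4:**
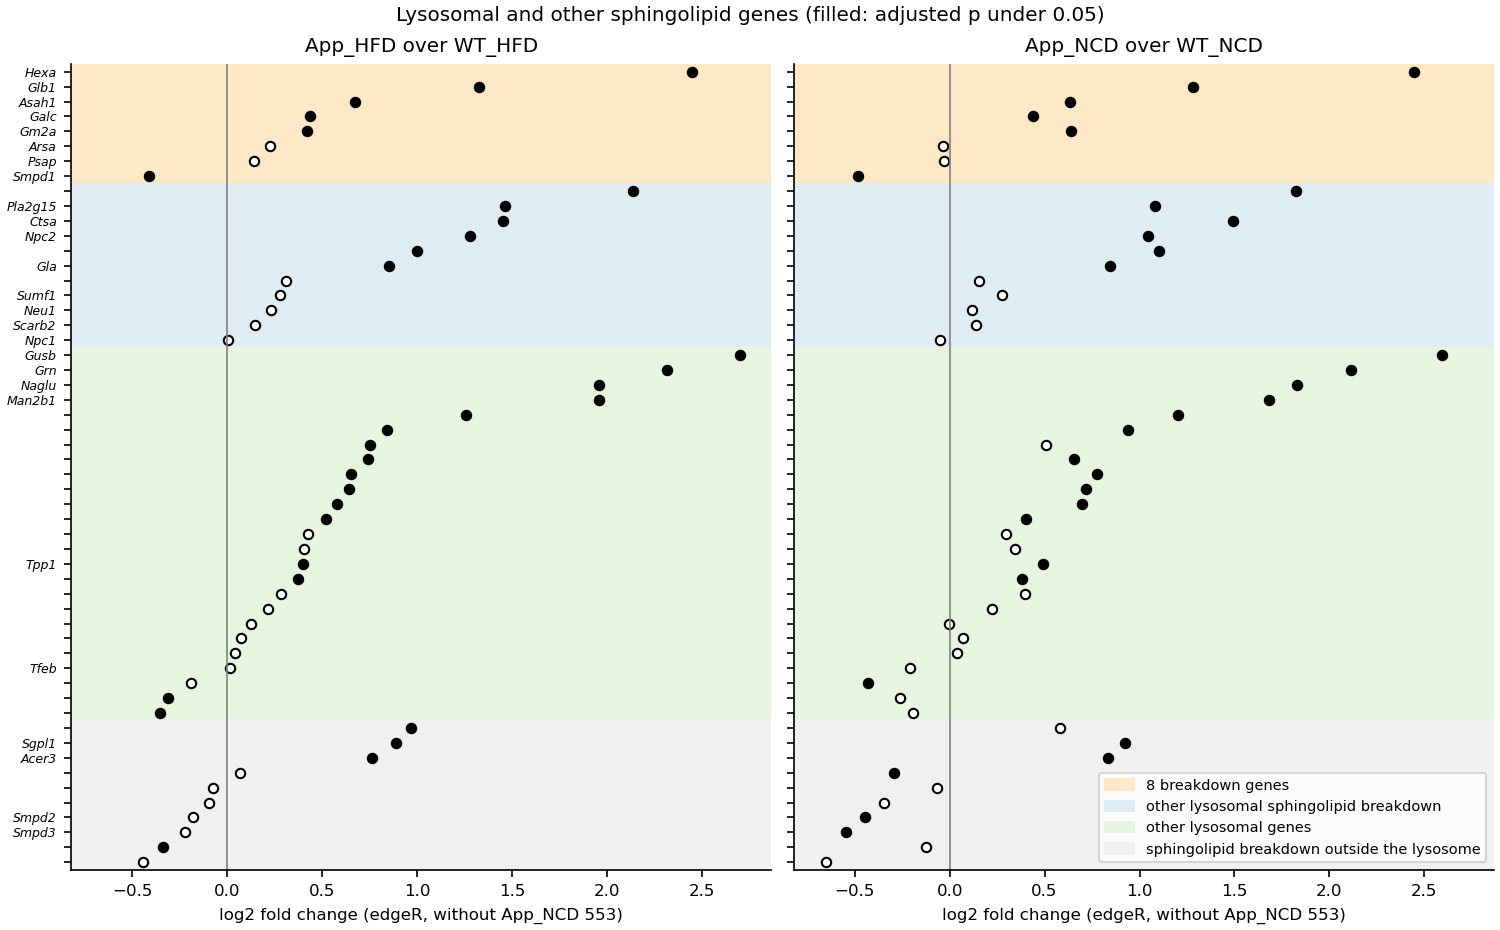
Log2 fold change (horizontal axis, edgeR fit without App_NCD 553) for the 8 genes and the 3 lists of related genes, with App_HFD over WT_HFD on the left and App_NCD over WT_NCD on the right; filled points have an adjusted p under 0.05, shading marks the list, and only genes named in the text are labelled. Hexa, Gusb, Grn, Naglu and Man2b1 lie above 1.5 on both diets, and the genes that act outside the lysosome lie on both sides of 0.

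Diet left no call among the 8 genes in either genotype. In edgeR 0 of 8 passed for App_HFD against App_NCD and 0 of 8 for WT_HFD against WT_NCD, and none had an unadjusted p under 0.05 with all 16 libraries. The share called over all genes was 0% in both, with 2586 and 419 genes at an unadjusted p under 0.05. DESeq2 called 102 and 7 genes and limma-voom with quality weights 161 and 6, with 0 of the 8 genes among them. The log2 fold changes of the 8 genes for diet ran from -0.09 (Asah1) to 0.52 (Arsa) in App and from -0.18 (Psap) to 0.06 (Gm2a) in wild type. In CPM, Arsa was the only one of the 8 genes whose App groups did not overlap with diet, against 5.7% of all genes (8.2% without App_NCD 553, where it was again the only one), and 0 of the 8 did so in wild type, against 2.52% of all genes.

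The intervals say how large a diet effect the data still allow. For Hexa the 95% interval of the log2 fold change was -0.46 to 0.88 in App (0.725-fold to 1.84-fold) and -0.75 to 0.59 in wild type, and -0.46 to 0.31 and -0.44 to 0.28 without App_NCD 553. For Galc it was -0.18 to 0.21 in App and -0.17 to 0.23 in wild type. Glb1 had -0.40 to 0.39 and -0.55 to 0.23, Asah1 -0.36 to 0.19 and -0.39 to 0.17, Gm2a -0.40 to 0.45 and -0.36 to 0.48, and Psap -0.30 to 0.33 and -0.50 to 0.13. Smpd1 had the wide intervals of -0.40 to 0.96 and -0.78 to 0.59, which narrowed to -0.25 to 0.20 and -0.31 to 0.11 without App_NCD 553. Arsa had the highest upper bound, with -0.15 to 1.18 in App (0.9-fold to 2.27-fold) and -0.71 to 0.62 in wild type. Without App_NCD 553 Arsa was at 0.21 ± 0.0874 in App (edgeR, unadjusted p = 0.0293, adjusted p = 0.642), higher in 4 of 4 App_HFD libraries than in any App_NCD library, and -0.05 ± 0.0805 in wild type.

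**Figure D5:**
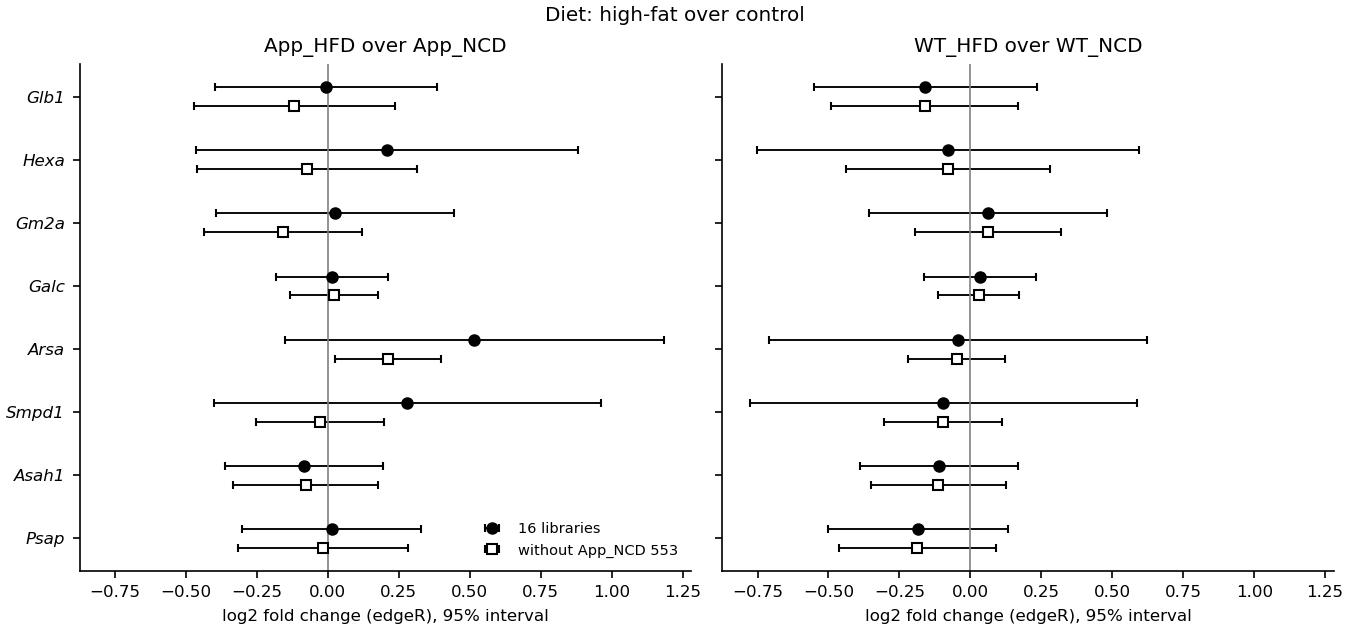
Log2 fold change of the 8 genes (horizontal axis, edgeR) for App_HFD over App_NCD on the left and WT_HFD over WT_NCD on the right, with 95% intervals, filled circles for the fit of 16 libraries and open squares for that without App_NCD 553. With all 16 libraries each interval includes 0, and Arsa in App without App_NCD 553 is the exception among the open squares.

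The effect of genotype was not shown to depend on diet for any of the 8 genes. The interaction, the App effect on the high-fat diet minus that on the control diet, was called for 0 of 8 genes and for 0% of all genes in edgeR, with 639 genes at an unadjusted p under 0.05 and 3 called by DESeq2. For Hexa it was 0.29 on the log2 scale with a 95% interval of -0.66 to 1.24, and 0.005 with an interval of -0.53 to 0.54 without App_NCD 553. For Glb1 it was 0.15 (-0.40 to 0.71), for Asah1 0.03 (-0.37 to 0.42) and for Galc -0.02 (-0.30 to 0.26). Arsa had 0.56 (-0.38 to 1.503), and 0.26 (0.006 to 0.51) without App_NCD 553 (unadjusted p = 0.0455, adjusted p = 1).

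The 8 genes did not vary as 1 block within groups. Over the 15 libraries without App_NCD 553, with each group's mean taken out of log2 CPM, Hexa and Asah1 followed each other most closely (Pearson r = 0.865), then Psap and Glb1 (0.756) and Hexa and Gm2a (0.712). The lowest was Gm2a with Arsa (-0.631), and Galc stayed between -0.163 and 0.468 with the other 7. These values share their libraries, cell mixture and scaling, and are a description. By the same measure among 14816 genes, those most like Hexa were Acer3, Tagap1 and Fcer1g, the Fc receptor γ chain of myeloid cells (r = 0.967, 0.966 and 0.965). Those most like Asah1 were Snx10, Neurl1a and Npl (0.96, 0.958 and 0.956). Gm2a was closest to Zdhhc5, Grina and the lysosomal peptidase Tpp1 (0.946, 0.936 and 0.93), and Glb1 to Dlgap4, Plxnb2 and Pdk1 (0.97, 0.959 and 0.946). Psap was closest to Htatip2, Tmem176b and Apeh (0.99, 0.967 and 0.953), Smpd1 to Tmprss11a and Miga1 (0.951 and 0.923), and Arsa to Ccdc12, Elp6 and Ptpa (0.942, 0.94 and 0.939). Galc had the weakest partners, Creb3l2, Wdr43 and Jade2 (0.926, 0.832 and 0.815). Spearman's rho was 0.929 for Hexa with Acer3 and 0.796 for Galc with Creb3l2.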

How the data were processed

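Per the submitters' processing notes, reads were trimmed with fastp 0.23.2, aligned to mm10 with HISAT2 2.2.1 and quantified with StringTie 2.2.1, and bedtools 2.25.0 was also named. The deposited values are the authors' estimated counts per gene and library, all whole numbers. The annotation and the strand setting of the counting are not given in the sources used here, so reads shared by overlapping or antisense genes may be divided between them. StringTie derives such counts from coverage, so they are not independent molecules.

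Libraries were grouped by genotype and diet from their titles. Genes were filtered with filterByExpr, scaled by TMM and tested with edgeR 4.0.16 (limma 3.58.1, R 4.3.3), by the robust quasi-likelihood test with 1 coefficient per group and 12 residual degrees of freedom. P-values were Benjamini-Hochberg adjusted over 21768 genes, or 22322 without App_NCD 553, with a threshold of 0.05. The procedure was tested on simulated counts. CPM uses the TMM-adjusted total, and levels per kb use the longest principal coding transcript of GENCODE vM21, the source of mm10 coordinates. With totals of 64538297 counts or more per library, counting error is small beside the spread between mice. The titles number a mouse per library, and libraries were taken as separate animals.

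The 8 genes, the related lists and the marker lists (microglia, border macrophage, oligodendrocyte, precursor, astrocyte, endothelial, neuron) were chosen with earlier results of these data known. Named genes are the 8, up to 6 called genes of each related list by adjusted p, up to 3 of each marker list by level, and the 3 genes most like each of the 8 by Pearson r. Acer1 was removed by the filter, and some genes that this rule names are not reported here. Alternatives were no filter, library totals alone, RLE scaling, scaling to the myelin list, DESeq2 1.42.0, limma-voom (quality weights), at least 10 counts in every library, the 8 libraries compared alone, and each library left out.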

Additional observations from a re-analysis of the deposited data

Results flagged for a closer look

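In the library App_NCD 553, Hexa was at 215.5 CPM while the other App_NCD libraries were at 727.4 to 819.2 CPM, a gap that takes up most of the group's range. Smpd1 was at 29.87 CPM in the same library, against 137 to 139.3 CPM in the others. Both were flagged because 1 sample lay far from the other 3, and they were the only 2 flagged in 36 groups of 4 libraries looked at. Chance alone marks about 1 group in 20 where groups are independent. The groups here share libraries and both flags fall in App_NCD 553, so the number flagged cannot be compared with that rate. This library also had 39.4% mitochondrial counts, and the part of that in these values was not tested. Galc (110.7 CPM) and Asah1 (239.5 CPM) in App_NCD 553 lay within the range of the rest of their group.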

How the results depend on the processing

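Over the 8 genes and 5 contrasts, 24 alternative fits gave 952 values. Of these 929 kept their direction and call, or stayed uncalled, 11 lost a call, 12 gained one and 0 reversed. Among the 929, 55 differed in sign with neither fit making a call. Of the 8 genes, 4 were called for genotype on the high-fat diet, beside 1554 of all 21768 genes. The count was 7 with limma-voom and quality weights (6672 of all genes) and 2 with library totals alone (1176). It was 2 with scaling to the myelin list (849) and 7 with the 8 libraries compared alone (4816). On the control diet 4 were called, beside 1826 of all genes. This became 1 with library totals alone (841 of all genes) and 2 with scaling to the myelin list (1310). It became 2 with the 8 libraries compared alone (505) and 6 with limma-voom (7231). Leaving out each library in turn gave 4 to 6 on both diets, with 6 only without App_NCD 553 (4307 and 3900 of all genes). The lost calls were those of Galc and Asah1, and on the control diet with library totals also Glb1. Hexa was called in all 24 fits on both diets, with log2 fold changes of 2.36 to 2.60 on the high-fat diet and 2.01 to 2.53 on the control diet.

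Over all genes, the 1554 calls on the high-fat diet became 2508 with DESeq2, 6672 with limma-voom, 849 with scaling to the myelin list and 4816 with the 8 libraries alone, and 869 to 4307 with 1 library left out. The libraries that moved it by over 1.5 times were App_HFD 547 (890) and 559 (891), WT_HFD 2 (869), 3 (949) and 15 (996) and App_NCD 553 (4307). The 1826 calls on the control diet became 3398 with DESeq2, 7231 with limma-voom, 841 with library totals alone, 505 with the 8 libraries alone and 939 to 3900 with 1 library left out, where WT_NCD 5 (969), 11 (945) and 12 (939) and App_NCD 553 (3900) moved it by over 1.5 times. The share of calls that were higher in App was 71.3% and 77.5%, but 54.3% and 62.4% with library totals and 92% and 97.9% with scaling to the myelin list. Those scalings moved the median log2 fold change of all genes to -0.09 and -0.29, and to 0.11 and 0.14. Diet in App had 0 calls, and 102 with DESeq2 and 161 with limma-voom, diet in wild type 0, 7 and 6, and the interaction 0 and 3 with DESeq2, and each was 0 to 0 with 1 library left out. The causes were not tested. No paired analysis was possible because the groups share no replicate number. With 4 mice per group, the diet intervals in App that reach highest span 0.9-fold to 2.27-fold (Arsa) and 0.757-fold to 1.95-fold (Smpd1). Changes of these sizes are not excluded in the fit of 16 libraries. Without App_NCD 553 the intervals were 1.02-fold to 1.32-fold (Arsa) and 0.839-fold to 1.15-fold (Smpd1).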

Other observations

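Ratios of counts within a library do not depend on the scaling, and the pairs here were chosen after their values were seen, as a description. Hexa over Gm2a, the enzyme subunit over its activator, was 2.12 to 2.73 in App_HFD and 1.93 to 2.6 in App_NCD, where library 553 had 1.23, against 0.539 to 0.733 in WT_HFD and 0.593 to 0.755 in WT_NCD. Asah1 over Smpd1 was 1.47 to 1.92 in App_HFD and 1.71 to 1.74 in App_NCD, where library 553 had 8.02, against 0.651 to 1.07 in WT_HFD and 0.698 to 0.938 in WT_NCD. Both ratios were higher in every App library than in any wild-type library. By contrast, a ratio of genes whose products join in 1 complex overlapped between genotypes. Glb1 over Ctsa was 0.132 to 0.15 in App_HFD and 0.131 to 0.153 in App_NCD (0.0977 in library 553), against 0.126 to 0.201 in WT_HFD and 0.149 to 0.214 in WT_NCD.

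Markers of other cell types were counted in the same way, with no test of one list against another. Of 10 endothelial genes, led by Flt1, 2 fell on the high-fat diet and 3 on the control diet in edgeR, and of 10 astrocyte genes, led by Slc1a2, 0 and 1 fell. Of 10 precursor genes, led by Ptprz1, 1 rose and 1 fell on each diet. Of 8 border macrophage genes, led by Mrc1, and 10 neuronal genes, led by Tubb3, 0 passed on either diet. Without App_NCD 553 the endothelial count was 4 and 6 lower and the astrocyte count 1 higher and 2 lower on the high-fat diet and 4 lower on the control diet, and 1 border macrophage gene rose on the high-fat diet. The precursor count was then 1 higher and 3 lower on the high-fat diet and 1 higher and 1 lower on the control diet, and 1 neuronal gene fell on each diet. The median log2 fold change of the endothelial list without App_NCD 553 was -0.77 on the high-fat diet and -0.997 on the control diet, beside 1.30 and 1.13 for the homeostatic microglial list.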
